A study of Homo sapiens with 43 samples.

Results

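LCC1 is 1 of 6 latency-competent derivatives of H2087, an established human lung adenocarcinoma line, and it was set against the other 5, LCC2 to LCC6, gene by gene. A gene belonged to the set described here if its mean over the 12 derivative libraries was at least 50 normalized counts and if LCC1 lay above the highest or below the lowest of LCC2 to LCC6 in both culture media. Of 18085 genes in the tables, 11167 had that mean, and 682 of these (6.11%) met the rule: 301 (2.70%) with LCC1 highest and 381 (3.41%) with LCC1 lowest. The rule uses the values of LCC1 and of LCC2 to LCC6, so the contrast between them is described and not tested.

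Per the labels, the derivatives were isolated from an organ that was negative in bioluminescence imaging, and parental cells and derivatives were cultured for 48 h, subconfluent, in medium low in mitogens (MLM) or rich in them (MRM) before total RNA was extracted. Each medium has 1 library of LCC1, 5 libraries of LCC2 to LCC6, 1 from each derivative, and 2 of parental H2087 cells. No derivative has a second library in a medium, so a trait of LCC1 and a trait of its culture or library cannot be told apart except by the 2 media, and nothing in the labels says whether the parental libraries are separate cultures. Parental library 3 of MLM, the HCC1954 breast cancer libraries and 12 chromatin samples were not analysed here.

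Disseminated tumour cells can stay dormant in an organ for long periods, and lines grown out from such cells are used to ask how they persist. A derivative line carries what it inherited from the cells that founded it as well as what it acquired later, so sister lines from 1 parent can differ from each other in expression even under the same conditions. Basement membrane genes, immediate-early genes and regulators of cell adhesion are among the programmes by which tumour cells sense their surroundings and growth factors.

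Libraries held 44.6 to 55.7 M reads in MLM and 12.1 to 20.8 M in MRM, with LCC1 at 46.5 and 17.9 M, so medium and depth move together. All 6 markers of lung carcinoma epithelium (EPCAM, KRT7, KRT8, KRT18, KRT19 and CDH1) had a mean of at least 50 normalized counts, with a summed level in LCC1 of 169436 in MLM and 198295 in MRM against 147999 to 457899 in LCC2 to LCC6. CDH1, the epithelial cadherin, spanned 19.9 to 15534 normalized counts over the 12 derivative libraries and stood at 433 and 1832 in LCC1. Of 10 markers each of blood, endothelium and fibroblasts, 2 per list had a mean of at least 50. The summed blood cell markers stood at 2910 and 5163 in LCC1 against 2605 to 8530 in LCC2 to LCC6, although PTPRC, which defines blood cells, stayed between 0 and 3.91 and TYROBP was at 0 in every library. Endothelial markers summed to 532 and 516 against 308 to 999.9, and fibroblast markers to 386 and 614 against 327 to 997. LCC1 thus lay within the sisters' span for these 3 lists. Each span of summed markers covers both media together, so it is no comparison within a medium. Of 10 kidney epithelium markers, 1 had a mean of at least 50. Their sum stood at 126 in MLM and 71.6 in MRM in LCC1 against 80.5 to 158, below the span in MRM. The part of these genes in the results was not tested. In MRM the LCC5 and LCC6 libraries were closer to each other (chi-square over its degrees of freedom 6.93) than any other pair of derivatives (25.9 to 111), which puts the label of LCC6 in that medium in doubt. Leaving LCC6 of MRM out of the range gave 701 genes in place of 682. That count could only stay or rise, so it says nothing about the label.

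By this count LCC1 was one of the derivatives that stood apart least. By the same rule LCC2 lay outside its 5 sisters for 2663 genes, LCC4 for 2049, LCC3 for 1558 and LCC6 for 1125, while LCC5 did so for 394. The LCC5 and LCC6 libraries of MRM were close and each is in the other's range, which limits how often either lies outside it. LCC6 lay outside for 4938 genes in MLM and 2491 in MRM, and LCC5 for 1845 and 1877. Their counts were not redone with the other of the pair left out of MRM alone. In a single medium LCC1 lay outside the range for 2105 genes in MLM (18.9%) and 2605 in MRM (23.3%), and 45 genes were outside on opposite sides in the 2 media. The distances were small: the median, over the genes highest in LCC1, of the smaller of the 2 gaps to the nearest sister was 0.047 on the log2(value + 1) scale, and 0.046 over those lowest in it. A gap of at least 0.5 in both media was reached by 8 genes, 6 with LCC1 highest and 2 with LCC1 lowest, and by LAMC3 alone at 1. The required mean includes LCC1, which favours genes high in it. For LAMC3 the sisters' means were 34.2 in MLM and 50.2 in MRM, and for RGAG4 48.2 and 38.5. These genes reached the mean of at least 50 only with LCC1 counted in. Exact 95% Poisson intervals of the reads of LCC1 and of its nearest sister, which cover counting error only, were apart in both media for 62 genes, 31 on each side. The count rests on its neighbours: it became 1776 without LCC4, 1352 without LCC2 and 1117 without LCC3, each leaving 4 sisters to set the range. Fewer sisters cannot widen the range, so the count could only stay or rise, and only the size of the rise is a result. Scaling to equal library totals gave 371 genes with LCC1 highest and 274 with LCC1 lowest, 645 in all, of which 520 were among the 682.

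**Figure D1:**
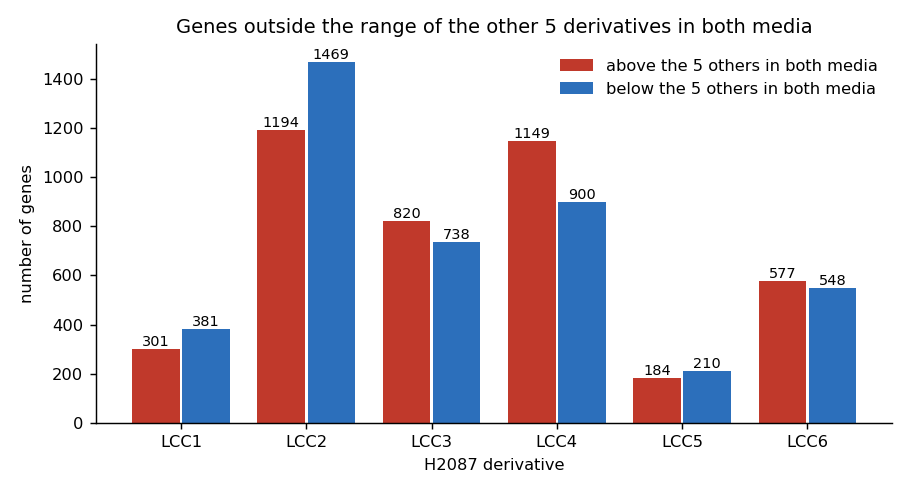
Number of genes (vertical axis) for which each derivative (horizontal axis) lay above (red) or below (blue) all 5 others in both media, of 11167 genes with a mean of at least 50. LCC1 has 301 and 381 genes, more than LCC5 and fewer than the other 4.

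At the edge of the rule the differences were within counting error. RPS6KA3, a kinase downstream of ERK, read 3707.13 in LCC1 and 3706.98 in LCC4 in MLM. UBTD1 and AKAP8 were the other 2 members with the smallest gaps. MPG, SSFA2 and ISG20L2 came closest without meeting the rule.

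The genes that rank first on the upper side are LAMC3, BEAN1, FLT4, CLMP and NID1, and 3 of them encode parts of the basement membrane or of cell contacts. LAMC3, a laminin gamma chain, read 271 normalized counts in LCC1 in MLM and 45.6, 25.6, 90.5, 6.27 and 3.08 in LCC2 to LCC6. Its MRM values were 516 in LCC1 and 79.3, 48.0, 80.1, 19.7 and 23.9 in the sisters. LCC1 thus stood well above each sister in both media. Its log2 difference from the mean of the sisters was 3.75 in MLM (SD of the sisters 1.86) and 3.56 in MRM (SD 0.92). It was below the parental libraries in MLM (469.8 and 496) and above them in MRM (373 and 336). NID1, which encodes nidogen 1, a protein that links laminin to collagen IV, read 1450.4 in LCC1 and 362, 825, 808, 974 and 9.84 in LCC2 to LCC6 in MLM. In MRM NID1 stood at 1873 in LCC1, at 327, 675, 679.9, 919.9 and 282 in its sisters and at 131 and 109 in the parental libraries. LCC1 was thus the highest of all 8 libraries in each medium for NID1, and LCC6 of MLM, at 9.84, was far below the rest.

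CLMP, an adhesion molecule of the CAR family that lies on chromosome 11, read 432 in LCC1 against 144, 133, 205, 149 and 22.1 in MLM, and 464 against 107, 99.1, 299, 181 and 169 in MRM. Here too LCC1 exceeded the parental libraries (MLM 212 and 241, MRM 69.6 and 94.5). FLT4, the receptor for the lymphatic growth factors VEGFC and VEGFD, stood at 232 in LCC1 and 139, 63.4, 127, 51.3 and 17.8 in the sisters in MLM, and at 297 and 167, 104, 111, 73.5 and 66.7 in MRM. For FLT4 the parental libraries changed places with the medium, at 670.2 and 665 in MLM, above LCC1, and 75.9 and 47.3 in MRM, below it. The protocadherin PCDH8 was at 157 and 245 in LCC1 and at 11.7 to 101 and 80.7 to 192 in the sisters, and NPR3, the clearance receptor for natriuretic peptides, at 141 and 121 against 30.8 to 94.8 and 39.3 to 89.5. For both genes the counting intervals of LCC1 and its nearest sister overlapped in at least 1 medium. Of 30 tested integrins, laminins and other adhesion genes of a separate list, which does not hold LAMC3 or NID1, none was a member.

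**Figure D2:**
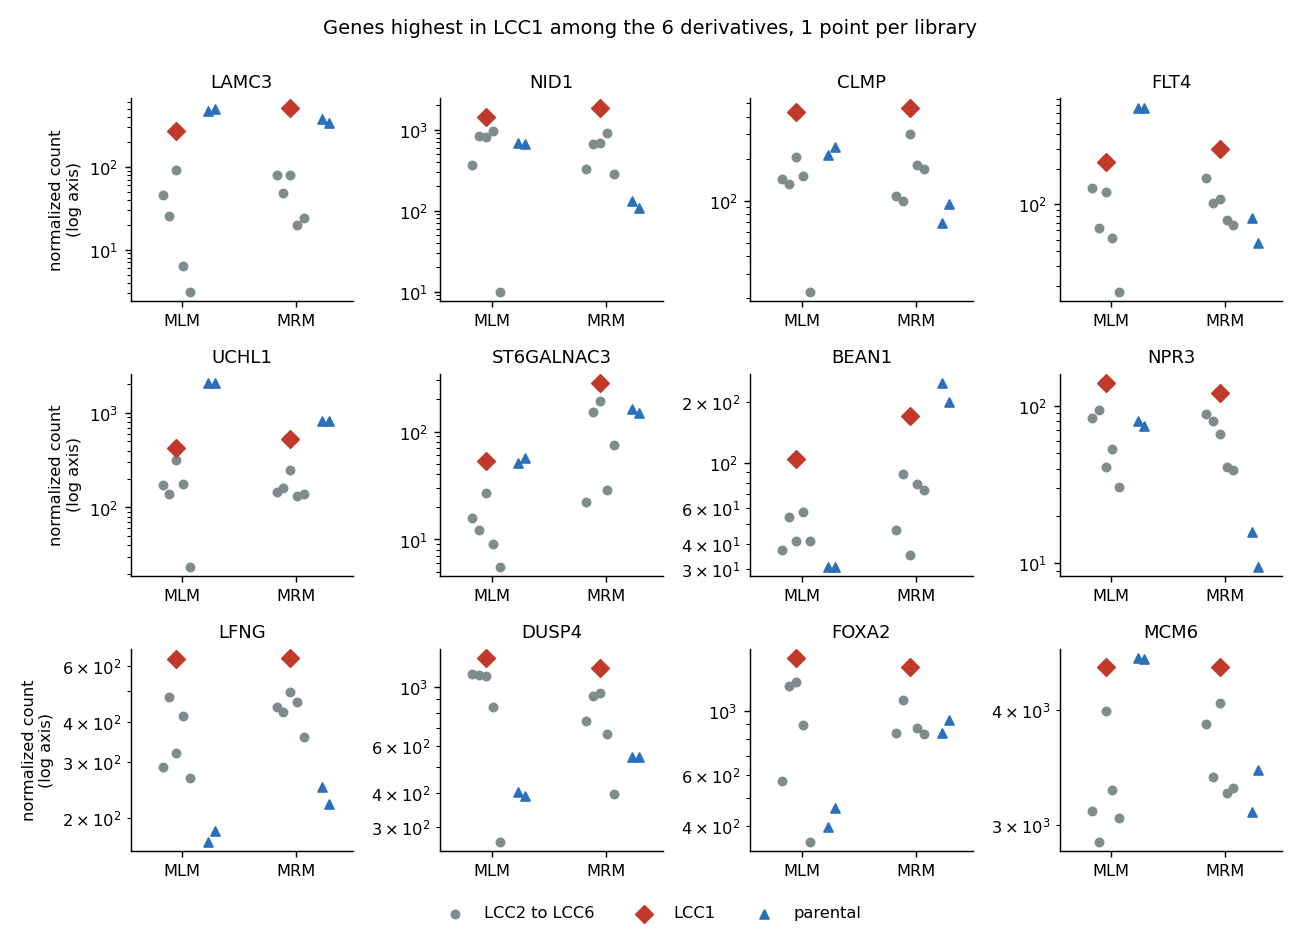
Normalized counts (vertical log axes) of 12 genes highest in LCC1, in MLM and MRM (horizontal axis), with 1 point per library: LCC1 (red diamonds), LCC2 to LCC6 (grey circles, in that order from left to right) and parental cells (blue triangles). LCC1 lies above every grey point, by the widest margin for LAMC3, while the parental points lie above LCC1 for UCHL1 and below it for LFNG and DUSP4.

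UCHL1, a ubiquitin hydrolase abundant in neurons, read 431 in LCC1 and 174, 138, 319, 178 and 23.4 in its sisters in MLM, with 2057 and 2086 in the parental libraries. In MRM UCHL1 was at 532 in LCC1, 145, 161, 248, 131 and 140.2 in LCC2 to LCC6 and 821 and 829.5 in parental cells. LCC1 lay above every sister and below both parental libraries in each medium. ST6GALNAC3, a sialyltransferase, read 53.7 and 283 in LCC1 against 5.54 to 26.8 and 22.0 to 193. BEAN1, a membrane protein that binds the ubiquitin ligase NEDD4, read 104 and 170.5 against 37.4 to 57.5 and 35.2 to 88.3, and RGAG4, a gene derived from a retrotransposon, 91.7 and 81.8 against 14.3 to 65.5 and 25.0 to 53.8. The MAP kinase phosphatase DUSP9 stood at 195 and 264 in LCC1, at 66.6 to 154 and 119 to 195 in the sisters and at 468 and 511 and 506 and 574 in the parental libraries.

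Regulators of Notch signalling split between the 2 sides. LFNG, the Fringe enzyme that modifies Notch receptors with sugar, read 631 in LCC1 and 288, 478, 319.6, 418 and 266 in LCC2 to LCC6 in MLM, and 634 and 446, 429, 494, 461 and 357 in MRM. HES6, a bHLH regulator related to the Notch effectors, was also highest in LCC1, at 117 and 205 against 78.1 to 106 and 95.7 to 181. The receptor NOTCH3 was lowest, at 581 and 939 against 1223, 1159.8, 817, 734 and 1264 in MLM and 1751, 1824, 2997, 1173 and 1098 in MRM. The Notch list thus had 2 members above and 1 below of 19 tested genes, against 2.70% and 3.41% of all genes, and its median log2 difference was -0.04 in MLM and 0.06 in MRM, where all tested genes had -0.01 and -0.0014.

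Among lung identity genes, 2 of 13 were highest in LCC1, against 2.70% of all genes, and none lowest (list medians 0.20 in MLM and 0.02 in MRM). FOXA2, a pioneer factor of foregut epithelium, read 1532 in LCC1 against 350.1 to 1265 in MLM, and in MRM 1428 against 831 to 1426, so that LCC4 came within 0.002 of it on the log2 scale in MRM. ABCA3, the lipid transporter of surfactant-storing bodies, was at 1957 and 4538 against 1298 to 1844 and 2645 to 3827, below the parental libraries (2868 and 2899 and 6182 and 5745). Cell cycle genes had 3 members above and 2 below of 40, against 2.70% and 3.41% of all genes. Counts this small say nothing particular of the list. The 3 above, MCM2, MCM5 and MCM6, encode subunits of the replicative helicase: MCM6 read 4453 in LCC1 and 3109, 2874, 3987, 3276 and 3054 in MLM, and 4456 and 3866, 3382, 4068, 3247 and 3295 in MRM. MCM5 stood at 5872 and 5299 against 4331 to 5482 and 3962 to 5076. The 2 below, the mitotic kinase AURKA (2931 and 2584 against 2985 to 3423 and 2778 to 3271) and the anaphase activator CDC20, act in mitosis, and CDC20 was no member with equal library totals. MCM2 and CDC20 were named after their values were seen, as were EGR1, IER2, SPRED1 and CTGF below.

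TAGLN3, ARID3A, HIST1H2AC and MITF rank first among the genes lowest in LCC1. Of 34 named members lowest in LCC1, the counting intervals of LCC1 and its nearest sister were apart in both media for 10. These were MITF, RASGRF1, AXL, CYR61, PFKFB3, SLC2A1, TXNIP, PLAU, PLAUR and BCL2L1. Of 28 named members highest in LCC1, the intervals were apart for 13. These were LAMC3, BEAN1, FLT4, CLMP, NID1, ST6GALNAC3, UCHL1, LFNG, DUSP4, MCM6, PRKCDBP, POLD4 and APLP2. For every other named member of either side the intervals overlapped in at least 1 medium. That includes TAGLN3, ARID3A, HIST1H2AC, NOTCH3, TP73, PDCD1LG2, SNAI1, CTGF, FOS and EGR1. TAGLN3, a transgelin of neurons, read 79.7 in LCC1 and 222, 209, 184, 463 and 274 in LCC2 to LCC6 in MLM, and 56.3 and 117, 94.5, 91.8, 307 and 274 in MRM. The parental libraries, at 76.0 and 82.1 in MLM and 68.0 and 49.6 in MRM, were close to LCC1 and below every sister. ARID3A, a DNA-binding regulator, stood at 61.0 in LCC1 against 118, 106, 88.7, 128 and 178 in MLM and at 98.9 against 235, 201, 160.2, 264 and 217 in MRM. Parental cells were above LCC1 for ARID3A in both (187 and 189, then 147 and 158). MITF, the master regulator of melanocytes, read 1276 in LCC1 and 2247, 1690.3, 2446, 2308 and 3005 in its sisters in MLM, and 1236 and 2401, 1663, 2604, 1981 and 2137 in MRM. For MITF the counting intervals were apart in both media, and the parental libraries (1931 and 1947 and 1256 and 1338) were higher than LCC1 in MLM and close to it in MRM.

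TP73, a transcription factor, read 79.1 and 32.4 in LCC1 against 109 to 348 and 41.8 to 164 in its sisters. PDCD1LG2, which encodes the checkpoint ligand PD-L2, read 50.1 and 40.9 against 66.6 to 179 and 65.0 to 101, and the Ras exchange factor RASGRF1 336 and 279.5 against 423 to 834 and 481 to 761. SERTAD1, a CDK4-binding coregulator, PARD6B, a subunit of the polarity complex, AVPI1 and the tetraspanin TSPAN10 followed with gaps of 0.32 to 0.38 on the log2 scale in the medium where they were closer. CD79A, a signalling subunit of the B cell receptor, had 1 read in LCC1 and 2 to 32 in the sisters in MLM, so its MLM gap is within counting error; in MRM it read 15.3 against 35.2, 150.2, 154, 129 and 132. HIST1H2AC belongs to a family of near-identical histone genes, between which the counting could split reads.

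**Figure D3:**
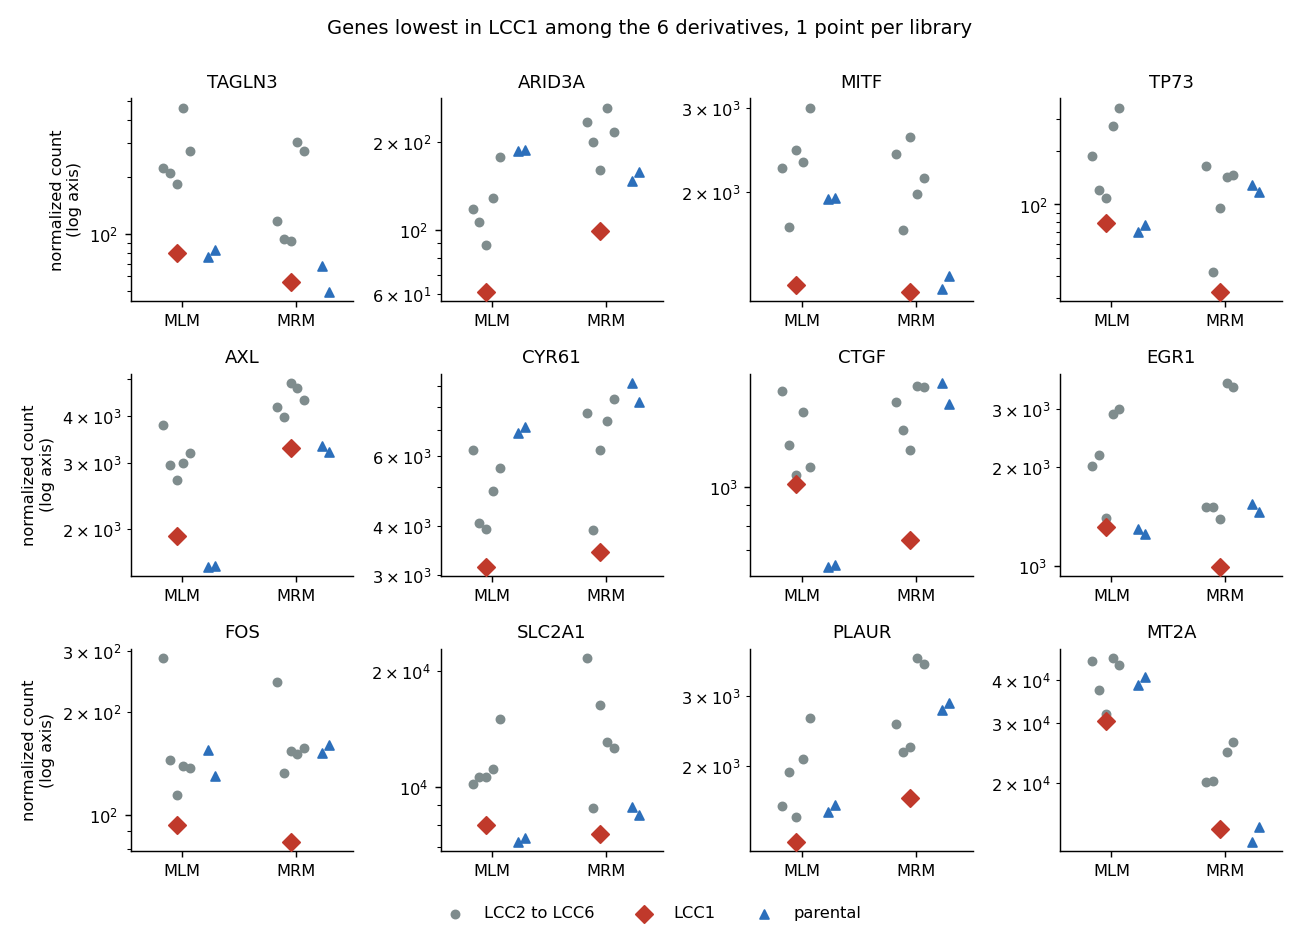
Normalized counts (vertical log axes) of 12 genes lowest in LCC1, in MLM and MRM (horizontal axis), with 1 point per library: LCC1 (red diamonds), LCC2 to LCC6 (grey circles, in that order from left to right) and parental cells (blue triangles). LCC1 lies below every grey point; the parental points lie near LCC1 for TAGLN3 and above it for CYR61.

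Mesenchymal and epithelial-mesenchymal transition genes had 4 members below and none above of 16 tested, against 3.41% of all genes below, with list medians of -0.13 in MLM and -0.05 in MRM. AXL, a receptor tyrosine kinase linked to invasion, read 1919 in LCC1 and 3779, 2952, 2689, 2988 and 3185 in LCC2 to LCC6 in MLM, and 3276 and 4227, 3972, 4892, 4743 and 4389 in MRM. SNAI1, a repressor of CDH1, was at 32.6 and 29.0 against 38.4 to 158 and 33.8 to 116, with LCC2 next to LCC1 in both media. CYR61 and CTGF encode secreted matricellular proteins and are textbook targets of YAP and its DNA-binding partners, the TEAD factors. CYR61 read 3145 in LCC1 and 6203, 4073, 3915, 4889.9 and 5608 in MLM, and 3436 and 7721, 3904, 6232, 7373 and 8354 in MRM, while the parental libraries were above LCC1 in both (6853 and 7094, then 9193 and 8236). CTGF stood at 1016 against 1716, 1263, 1067, 1521 and 1119 in MLM and at 739.8 against 1615, 1375, 1229, 1768 and 1754 in MRM, so that the distance was small in MLM and larger in MRM.

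Genes of the mitogen response lay on both sides. Of 29 tested ERK feedback and mitogen response genes, 4 were lowest in LCC1 and 2 highest, against 3.41% and 2.70% of all genes, with list medians of -0.05 in MLM and -0.11 in MRM. FOS, a subunit of AP-1, read 93.6 in LCC1 and 287, 145, 115, 139.6 and 137 in its sisters in MLM, and 83.5 and 244, 133, 154, 151 and 157 in MRM, with LCC2 the highest in each. EGR1, a zinc-finger factor induced within minutes of a mitogen, was at 1309.8 against 2018, 2173, 1395, 2901 and 2996 and at 992 against 1513, 1507, 1389, 3599 and 3505, with LCC5 and LCC6 the highest in both media. IER2, also an immediate-early gene, differed from the nearest sister by 0.003 in MLM, and the ERK phosphatase DUSP7 read 1053 and 809.7 against 1158 to 1680.3 and 936 to 1168. On the other side, DUSP4, a nuclear ERK phosphatase, read 1280.2 in LCC1 and 1114, 1101, 1091, 840.4 and 262 in MLM, and 1178 and 744, 923, 946, 667 and 398 in MRM. SPRED1, an inhibitor of Ras signalling, exceeded the next derivative by 0.004 in MLM.

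The plasminogen activator system had 2 members below and none above of 13 tested genes, against 3.41% of all genes below (list medians -0.02 and -0.22). PLAUR, the receptor that holds urokinase at the cell surface, read 1287 in LCC1 and 1590.5, 1926, 1485, 2081 and 2638 in MLM, and 1662 and 2547, 2163, 2229, 3731 and 3599 in MRM. Its ligand urokinase, PLAU, was among the most abundant members, at 27645 against 28409 to 39299 in MLM and 42980.5 against 44858 to 69679.8 in MRM. For both genes the counting intervals of LCC1 and the nearest sister were apart in the 2 media.

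The 250 bases before the start of 3 members lowest in LCC1 are shown, because each holds the recognition letters of a factor for which its gene is a textbook target. Capitals mark GGAATG, the TEAD element, in CTGF, the CArG box of serum response factor in EGR1, and TGANTCA, the AP-1 element, in PLAUR, each searched on both strands. The sequences are RefSeq's, from assembly GRCh38.p14, 5′ to 3′ on the gene's strand, at chr6:131951373-131951622 (minus strand) for CTGF, chr5:138465229-138465478 (plus strand) for EGR1 and chr19:43670170-43670419 (minus strand) for PLAUR.
CTGF: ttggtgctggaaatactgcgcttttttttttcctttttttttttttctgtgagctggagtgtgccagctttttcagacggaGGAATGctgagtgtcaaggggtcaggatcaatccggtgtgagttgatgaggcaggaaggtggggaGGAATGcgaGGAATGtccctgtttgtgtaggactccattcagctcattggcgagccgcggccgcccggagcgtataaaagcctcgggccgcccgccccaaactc
EGR1: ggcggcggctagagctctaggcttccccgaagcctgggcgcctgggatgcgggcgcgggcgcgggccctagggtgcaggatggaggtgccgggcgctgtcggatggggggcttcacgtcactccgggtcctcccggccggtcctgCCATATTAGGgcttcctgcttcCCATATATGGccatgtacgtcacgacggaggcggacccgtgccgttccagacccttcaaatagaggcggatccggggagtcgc
PLAUR: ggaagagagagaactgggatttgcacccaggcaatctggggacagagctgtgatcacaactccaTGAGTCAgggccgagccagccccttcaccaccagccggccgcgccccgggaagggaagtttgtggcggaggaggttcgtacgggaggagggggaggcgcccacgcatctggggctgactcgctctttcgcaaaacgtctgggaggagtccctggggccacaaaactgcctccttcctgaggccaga
CTGF has 3 matches, which begin 169, 104 and 95 bases before the start, EGR1 has 2, at 105 and 83, and PLAUR has 1, at 186. Over all tested genes with a promoter in the table (9168), 9.23% held GGAATG, 0.938% a CArG box and 3.65% TGANTCA. Members lowest in LCC1 held them in 11.1%, 1.23% and 5.54% of 325 promoters, and members highest in it in 10.4%, 0.433% and 3.90% of 231. A 4th element, TGCGCNC, the core of the metal response element of metallothionein genes, was held by 27.4% of all promoters, 24.6% of those of the members below and 29.0% of those above. A match is a stretch of letters, not a measured binding site.

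Glycolysis and hypoxia genes had 2 members below and none above of 29 (list medians -0.21 in MLM and -0.18 in MRM), against 3.41% of all genes below. That count is too small to single out the list. SLC2A1, the glucose transporter GLUT1, read 8003 in LCC1 and 10216, 10657, 10663, 11185 and 14996 in MLM, and 7575 and 21659.7, 8856, 16351, 13117 and 12618 in MRM. PFKFB3, which makes the main activator of phosphofructokinase, stood at 1050.2 and 943 against 1527 to 2139 and 1139.8 to 1899, and TXNIP, which restrains glucose uptake, at 4900.4 and 5703 against 5929.5 to 10293 and 6735 to 9362. A glucose transporter and a gene that restrains it were thus both lowest in LCC1. Metallothioneins had 2 members below of 6 tested, against 3.41% of all genes (medians -0.42 and -0.34): MT1E read 5143 and 3263 against 5819 to 9494 and 3562 to 6179, and MT2A was no member with equal library totals. These genes are near-identical copies, between which reads could be split. Of 25 death receptor and apoptosis genes, 2 were lowest in LCC1, against 3.41% of all genes, again too few to single out the list. They were the pore-forming BAK1, at 551 and 450.0 against 606 to 923 and 519.7 to 737, and its antagonist BCL2L1, at 9211 and 4882 against 9583 to 12414 and 5598 to 8175.

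Of 39 lists, 20 held no member, among them interferon stimulated genes (0 of 39), MHC class I and antigen processing (0 of 19), NF-kB cytokines and chemokines (0 of 21), epithelial markers (0 of 29), collagen chains (0 of 14), the WNT pathway (0 of 18) and ribosomal proteins (0 of 36). With 6.11% of all genes in the set, a list of this size holds few members or none, so these counts single out no list. For no tested gene of these 20 lists was LCC1 beyond the same end of the range in both media. The lists' medians were not all near 0: the WNT pathway stood at 0.35 in MLM and 0.17 in MRM, and MHC class II, with 0 members of 7 tested, at 0.95 and 0.03.

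Chromosome 11 held 60 of the 301 genes highest in LCC1, 19.9% of them. These were 9.26% of its 648 tested genes, against 2.29% of the 10519 genes elsewhere, while 2 of its genes were among those lowest. The median log2 difference between LCC1 and the mean of LCC2 to LCC6 over its genes was 0.27 in MLM and 0.26 in MRM, with 94.0% and 89.7% of the genes higher. The other 22 chromosomes lay between -0.10 (chromosome 14) and 0.087 (chromosome 15) in MLM. Without the members the chromosome 11 median in MRM was still 0.24. Along the chromosome, in 10 blocks of neighbouring genes ordered by a RefSeq table of GRCh38.p14 (99.7% of tested genes matched), the block medians ran from 0.21 to 0.32 in MLM and from 0.19 to 0.33 in MRM.

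LCC1 was not alone in this. Against the mean of the 6 derivatives, chromosome 11 genes had medians of 0.22 in LCC1, 0.19 in LCC2 and 0.21 in LCC4 in MLM, and of -0.21, -0.22 and -0.17 in LCC3, LCC5 and LCC6. In MRM LCC1, LCC2 and LCC4 stood at 0.21, 0.21 and 0.26 and LCC3, LCC5 and LCC6 at -0.24, -0.21 and -0.21. Parental libraries lay between the 2 sets, at 0.03 and 0.04 in MLM and at 0.14 in both libraries of MRM. DNA copy number was not measured in these libraries. Members on chromosome 11 included PRKCDBP, a caveola protein (2243 and 1047 in LCC1 against 922 to 1411 and 480.5 to 825), the polymerase delta subunit POLD4 (3619 and 3493 against 2507 to 3195 and 2330.5 to 2758), the amyloid precursor relative APLP2, the damage kinase ATM, the focal adhesion protein LPXN and the amino acid transporter SLC43A1. Runs of at least 5 neighbouring genes with LCC1 on 1 side in both media and at least 3 members numbered 13, of which 9 were on chromosome 11 with 145 genes. One run where LCC1 was lower, from C1orf52 to SH3GLB1 on chromosome 1, contains CYR61. By the same definition LCC2 had 97 runs, LCC3 40, LCC4 35, LCC6 32 and LCC5 10.

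**Figure D4:**
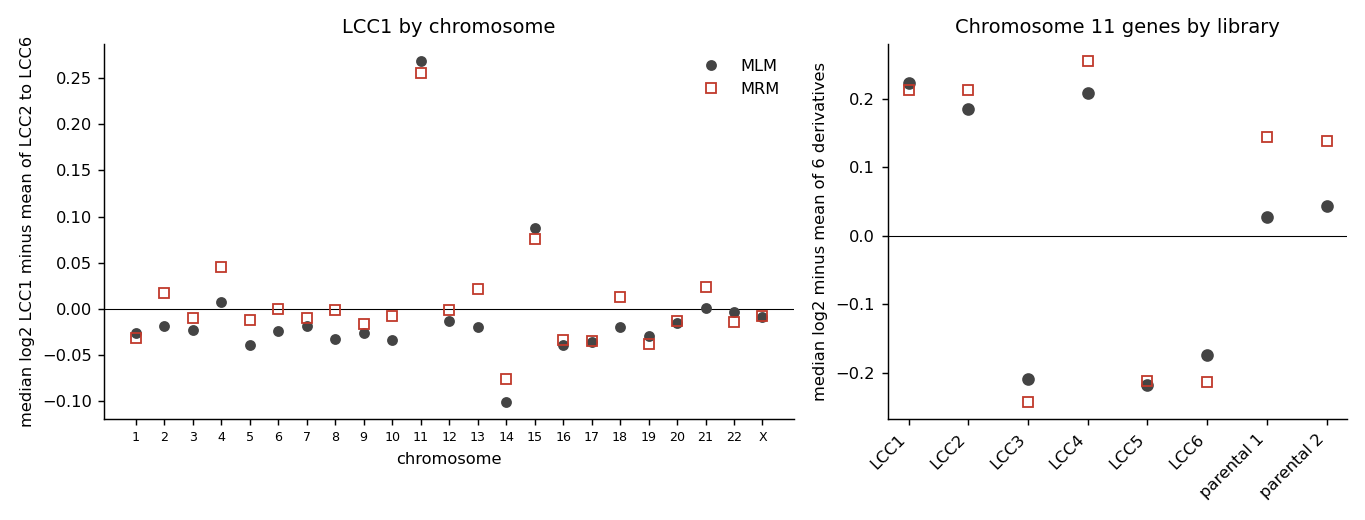
Left, the median log2 difference between LCC1 and the mean of LCC2 to LCC6 (vertical axis) over the tested genes of each chromosome (horizontal axis), in MLM (filled circles) and MRM (open squares): chromosome 11 stands at 0.27 and 0.26. Right, the median log2 difference of chromosome 11 genes from the mean of the 6 derivatives (vertical axis) for each library (horizontal axis): LCC1, LCC2 and LCC4 lie above 0, LCC3, LCC5 and LCC6 below it and the parental libraries between.

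The parental libraries were often on the same side of the sisters as LCC1. Among the 301 genes highest in LCC1, both parental libraries lay above the range of LCC2 to LCC6 for 86 in MLM (28.6%, against 20.2% of all tested genes) and for 130 in MRM (43.2%, against 19.5%). Both lay below it for 38 and 51. Among the 381 lowest in LCC1, both parental libraries lay below the range for 136 in MLM (35.7%, against 18.2%) and 163 in MRM (42.8%, against 21.8%), and above it for 76 and 31. The range of LCC2 to LCC6 enters both the choice of members and these counts, so the shares are a description. TAGLN3 was of this kind in both media. CYR61 was not: LCC1 was the lowest and the parental libraries were near or above the highest sister.

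**Figure D5:**
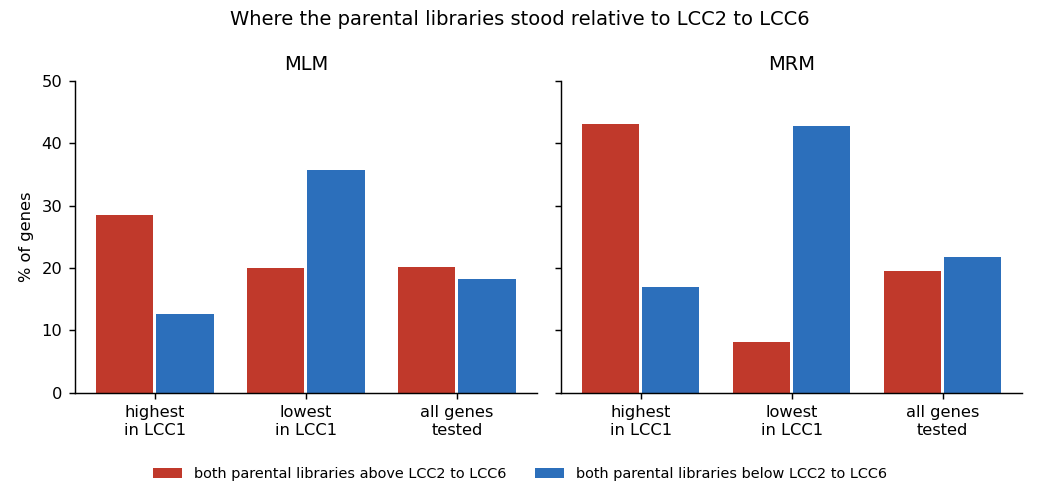
Percent of genes (vertical axis) for which both parental libraries lay above (red) or below (blue) all of LCC2 to LCC6, for the 301 genes highest in LCC1, the 381 lowest in it and all 11167 tested genes, in MLM (left) and MRM (right). In MRM 43.2% of the genes highest in LCC1 also had both parental libraries above.

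A limma fit of LCC2 to LCC6 against parental cells (5 against 2 libraries, without LCC1 in the contrast) places the sisters. It called 418 genes higher (3.35%) and 849 lower (6.80%) of 12480 in MLM, and 882 higher (7.06%) and 576 lower (4.61%) of 12495 in MRM. Scaled to equal library totals, the split was 310 higher and 1252 lower in MLM and 703 higher and 947 lower in MRM. Of the 301 members highest in LCC1, 38 were lower and 13 higher in the sisters in MLM and 62 lower and 29 higher in MRM. Of the 381 lowest in LCC1, 34 were higher and 22 lower in MLM, and 48 higher and 3 lower in MRM. The sisters' values also set the members, so these counts, and the differences of single members that follow, are a description, and no p is given for them. The log2 difference of LCC2 to LCC6 from parental cells for UCHL1 was -4.02 ± 0.88 (SE) in MLM and -2.35 ± 0.25 in MRM, with all 5 sisters below both parental libraries in each medium. LAMC3 stood at -4.58 ± 1.17 in MLM and -3.01 ± 0.58 in MRM. NOTCH3 was at 1.18 ± 0.24 in MLM and 2.60 ± 0.36 in MRM, AXL at 0.97 ± 0.12 and 0.44 ± 0.10, and TXNIP at 0.89 ± 0.21 and 2.26 ± 0.15. CYR61 had -0.52 ± 0.19 and -0.42 ± 0.27. Over all genes, the calls without parental library 1 or 2 fell to 51 and 37 in MLM and to 48 and 47 in MRM. Without LCC2 the MLM count rose to 2101, and without LCC5 it was 528 in MLM and 672 in MRM. The fit gives all groups 1 spread, but the parental libraries were closer to each other than the sisters were. Chi-square over its degrees of freedom was 2.63 for the parental pair in MLM and 3.85 in MRM. Among LCC2 to LCC6 it was 55.0 to 156 in MLM and 6.93 to 111 in MRM. Calls and SEs of both comparisons with parental cells, of LCC2 to LCC6 and of LCC1, rest on that shared spread.

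For LCC1 itself against the parental libraries (1 against 2, with LCC1 assumed to vary like the other groups), limma called 17 genes higher (0.136%) and 160 lower (1.28%) in MLM, and 114 higher (0.912%) and 19 lower (0.152%) in MRM. Of the members highest in LCC1, 4 were higher and 2 lower in MLM, and 9 higher and 1 lower in MRM. Of those lowest in it, 6 were lower in MLM, and 2 higher and 3 lower in MRM. The values of LCC1 also set the members, so these counts too are a description. In MRM the log2 difference of LCC1 from parental cells was 3.96 ± 0.67 (SE) for NID1 and 1.75 ± 0.23 for TXNIP. The counts over all genes fell to 0 in MLM and 3 in MRM without either parental library. In MLM 461 genes were called without LCC2, 87 without LCC3 and 27 without LCC5. In MRM 344 were called without LCC4, 75 without LCC6, 69 without LCC3 and 5 without LCC5.

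Because both tables proved to share 1 normalization, the response to the medium could be compared. The difference between MLM and MRM in LCC1 was set against that in LCC2 to LCC6 in 1 limma fit over the 12 derivative libraries. It called 0 of 12466 genes (0%), with 18 at an unadjusted p under 0.05. With the derivative as a block it also called 0, with 87 at an unadjusted p under 0.05, and edgeR called 0, with 20. Each of 45 genes lay outside the range on opposite sides in the 2 media. The gaps were widest for NEK8, a cilium kinase, NR4A2, an orphan nuclear receptor, EGLN2, an oxygen-sensing hydroxylase, and TPPP, a tubulin-binding protein. Their reads were few: NEK8 had 49 in LCC1 and 62 in LCC3 in MRM, and EGLN2 113 and 98 in MLM. Counting intervals were compared only for genes on the same side in both media, so these gaps may lie within counting error. NEK8 read 145 in LCC1 against 114, 113, 119, 127 and 127 in MLM, above every sister, and 83.5 against 114, 96.0, 152, 106 and 116 in MRM, below every sister. Its difference between the media was 0.74 ± 0.35 (SE), given with no p because the gene was picked for it. Over all genes, a different response of LCC1 to the medium was not detectable with 1 library of it in each. The fits without the block counted differences between derivatives as spread. Every fit gave fewer low unadjusted p values than chance alone would, so the lack of calls says little.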

How the data were processed

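RNA was sequenced by the submitters. The authors deposited 1 table per medium of signal values that they normalized, a column for each library. DESeq2 1.8.1, HTSeq 0.6.1p1 and Bowtie2 2.2.4 are named in the submitters' processing notes, as are hg19 and GRCh37, with no role or order. Within a library the deposited signal values were whole multiples of what 1 read is worth (100% of them within 0.01 reads), so reads were recovered. Size factors recomputed over the 16 H2087 libraries matched these steps, so both media share 1 normalization. Strand and paired counting are not given in the sources used here, so reads of overlapping genes cannot be told apart.

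LCC1 was compared with LCC2 to LCC6 by range, with no test. Differences are on log2(value + 1). limma 3.58.1 in R 4.3.3 (trended prior, two-sided, Benjamini-Hochberg under 0.05, mean at least 10) tested groups against parental cells and the medium response. On the recovered reads edgeR 4.0.16 called 1340 genes (MLM) and 1389 (MRM) between LCC2 to LCC6 and parental cells, and DESeq2 1.42.0 2533 and 2421. The limma fits were also run on simulated counts with 1 spread shared by all genes and groups. The sisters' spread varied between genes (log2 SD in MLM 1.86 for LAMC3 and 0.14 for POLD4). That run therefore does not show how the fits behave on these data. Deviations of the same derivative from the mean of the 6 derivatives correlated between media at 0.73, 0.69, 0.78, 0.78, 0.73 and 0.45 for LCC1 to LCC6, over 11167 genes, so the derivative number, which the labels give, was taken to pair the libraries. For LCC6 this is in doubt: the correlation of its MRM library was higher (0.55) with the MLM library of LCC5. Genes are not independent replicates. Named genes are a subset of the 12 leading members per side, up to 3 per list, members of runs and the edge cases. Members and lists were chosen with earlier results of these data known. Values are normalized counts unless marked.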

Additional observations from a re-analysis of the deposited data

Results flagged for a closer look

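Among the 66 genes checked, in 2 media each, 13 of 132 groups of the 5 sisters had 1 library set apart from the other 4 by Dixon's ratio, where chance flags about 1 in 20 groups. LCC2 was the one apart in 5 of these: it was highest for FOS in MLM (287) and MRM (244), HIST1H2AC in MLM (104) and PDCD1LG2 in MLM (179), and lowest for CD79A in MRM (35.2). LCC6 was the one in 4: highest for AVPI1 in MRM (239), PFKFB3 in MLM (2139) and SLC2A1 in MLM (14996), and lowest for SPRED1 in MLM (2051). LCC4 was highest for UCHL1 in MRM (248) and SLC43A1 in MLM (1033) and lowest for BAK1 in MRM (520), and LCC5 was highest for EGLN2 in MRM (75.3). All values are normalized counts. A library apart at the end of the range far from LCC1 cannot be the nearest sister, so it has no bearing on membership. On the side of LCC1, LCC4 was apart for UCHL1 and BAK1 in MRM and SLC43A1 in MLM, and LCC2 for CD79A in MRM. In these cases the library apart set the nearest value.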

How the results depend on the processing

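The 682 genes outside the range became 749 with a mean of at least 10, 639 with at least 100 and 670 with at least 50 in each medium, but 8 with a margin of 0.5 and 62 with separate counting intervals. Leaving out a sister gave 765 to 1776, a count that could only stay or rise. The chromosome 11 median ranged from 0.22 to 0.33 in MLM and from 0.20 to 0.33 in MRM without a sister; these alternatives, and a pseudocount of 5 for single genes, were chosen after seeing the data.

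For LCC2 to LCC6 against parental cells, leaving out a library gave 37 to 2101 calls in MLM and 47 to 2153 in MRM, and DESeq2 2533 and 2421. For LCC1 against parental cells it gave 0 to 461 and 3 to 344, and DESeq2 1061 and 638. With no filter the latter were 283 and 29, with equal totals 305 and 76, and in MLM with a mean of at least 50, 112. The medium response called 0 genes in every setting, the replicate block (0) and each left-out sister included, except 28 with no filter. The cause of these changes was not tested. The log2 difference of each of the 66 genes checked was averaged over the media (or taken between them for the 4 on opposite sides). This difference moved by less than 1 SD of the sisters in all 462 alternative values. Leaving out 1 sister cannot move the sisters' mean by 1 SD, so the values that did so could not have failed and show nothing about robustness. Only the values with another pseudocount or with equal library totals could have moved further. MRM libraries are shallower, and 1 library of LCC1 per medium limits every comparison.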
